A study of Mus musculus with 18 samples.

Results

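The 9 genes described here belong to the interferon pathway: the interferon-induced effectors Ifit1, Ifit2, Ifit3 and Isg15, the signal transducers Stat2 and Irf9, the transcription factors Irf1 and Irf7, and the GTPase gene Gbp2b. They were chosen by name, as a list, among the 48440 genes counted in the RNA libraries, with earlier results of these data known. Their RNA was followed while the histone variant macroH2A2 was switched on in fibroblasts that lacked macroH2A, and their loci were compared with the regions that held macroH2A2 or H2A.Z. The cells were SV40 immortalized dermal fibroblasts of a newborn (P0) male 129/S6 mouse, at passages 20 to 30. All of them, the uninduced controls included, were macroH2A1/2 double knockout and carried a macroH2A2-GFP transgene inducible with doxycycline. Whether the cells are 1 clone is not given in the sources used here.

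Poly(A) RNA was sequenced in 3 replicate libraries at 0 h (no doxycycline) and in 3 each after 6 h and 24 h of 0.5 ug/ml doxycycline. The GFP-tagged variant was mapped by native ChIP after MNase digestion, with 1 library per condition: 0 h, 6 h, 24 h and 5 days of doxycycline, 24 h with 0.5 uM flavopiridol in the last 18 h, and 6 h or 24 h of doxycycline that followed 10 days of 5 uM GSK126. Flavopiridol inhibits the transcription kinase CDK9, and GSK126 inhibits the histone methyltransferase Ezh2. An 8th ChIP library mapped H2A.Z in untreated wild-type primary neonatal dermal fibroblasts of females, at passages 0 to 1, which differ from the induced line in sex, genotype and culture. None of the groups was treated with interferon, per the labels.

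Interferons are secreted after a cell senses viral nucleic acid. Type I interferon signals through JAK kinases to STAT proteins, among them STAT2, which joins IRF9 in a complex, ISGF3, that binds the interferon-stimulated response element (ISRE) in promoters. Interferon gamma acts mainly through the GAS element and through IRF1. The IFIT proteins bind viral RNA, ISG15 is a ubiquitin-like modifier, IRF7 amplifies type I interferon production, and the guanylate-binding proteins are GTPases that act against intracellular pathogens. In resting fibroblasts most of these genes are known to be expressed at a low basal level.

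The promoters are shown first because the ISRE is the element through which the pathway reaches its targets. In windows from 250 bases before to 50 bases after each start site listed by RefSeq (GRCm38.p6), an ISRE core, written GAAANNGAAA and read on both strands (TTTCNNTTTC on the other), was found in 5 of the 9 genes. Of all 32619 windows of that length, 3.46% held it. The share by gene was 37.5% of 104 interferon pathway genes with a window and 4.02% of all 26794. Capitals mark the ISRE-core matches in the 250 bases before the start site of these 5 genes, printed 5′ to 3′ on the gene's strand.
Ifit1, chr19:34640639-34640888, plus strand: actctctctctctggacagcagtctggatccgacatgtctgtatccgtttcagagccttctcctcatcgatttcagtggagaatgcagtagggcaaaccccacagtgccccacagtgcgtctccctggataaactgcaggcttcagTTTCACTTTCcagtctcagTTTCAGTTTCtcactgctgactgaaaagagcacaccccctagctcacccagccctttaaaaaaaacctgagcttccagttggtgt
Ifit3, chr19:34583279-34583528, plus strand: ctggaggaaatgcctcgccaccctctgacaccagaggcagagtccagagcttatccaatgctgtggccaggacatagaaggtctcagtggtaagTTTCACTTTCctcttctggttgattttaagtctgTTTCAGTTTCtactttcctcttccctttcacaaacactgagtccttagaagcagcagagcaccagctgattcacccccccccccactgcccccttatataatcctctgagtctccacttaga
Isg15, chr4:156200819-156201068, minus strand: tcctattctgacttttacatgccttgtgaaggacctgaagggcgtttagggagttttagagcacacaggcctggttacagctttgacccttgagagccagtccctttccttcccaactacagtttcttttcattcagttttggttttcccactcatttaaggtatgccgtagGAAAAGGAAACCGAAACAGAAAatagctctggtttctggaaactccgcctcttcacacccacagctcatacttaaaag
Stat2, chr10:128270248-128270497, plus strand: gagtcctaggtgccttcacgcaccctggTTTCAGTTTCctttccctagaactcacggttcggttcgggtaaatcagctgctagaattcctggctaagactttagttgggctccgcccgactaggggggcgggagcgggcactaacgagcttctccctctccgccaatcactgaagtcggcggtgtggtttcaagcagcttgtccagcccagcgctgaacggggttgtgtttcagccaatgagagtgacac
Gbp2b, chr3:142594597-142594846, plus strand: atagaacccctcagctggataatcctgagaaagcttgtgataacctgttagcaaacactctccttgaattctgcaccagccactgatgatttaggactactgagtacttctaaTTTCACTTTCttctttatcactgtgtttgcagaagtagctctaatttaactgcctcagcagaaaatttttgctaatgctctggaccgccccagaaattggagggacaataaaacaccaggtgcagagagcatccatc

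Ifit1 held 2 matches, starting 104 and 85 bases before the start site, and Ifit3 held 2, starting at 156 and 122 bases. Isg15 held 3 matches that start 78, 72 and 66 bases upstream and overlap each other. Stat2 and Gbp2b held 1 each, at 222 and 137 bases. Ifit2, Irf9, Irf1 and Irf7 had no such letters in these windows. The palindromic core of the GAS element, TTCNNNGAA, occurred 241 bases upstream of Ifit2 and 90 bases upstream of Irf1, and in 8.34% of all windows. These matches are descriptions of the sequence and say nothing about binding in these cells.

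Induction was seen in the RNA of the targeted gene. H2afy2, which encodes macroH2A2, was at 10.5, 25.3 and 9.61 CPM (counts scaled to library size with TMM factors) in the 0 h replicates, at 820 ± 14.3 (SD, n = 3) after 6 h and at 1727 ± 13.8 (SD, n = 3) after 24 h; the count per gene cannot tell the transgene from the endogenous gene. H2afy, which encodes macroH2A1, was at 56.8 to 57.0 CPM on average at the 3 times, and counts over a whole gene do not show whether the deleted part was read. The 9 libraries held 29338093 to 37793178 counts over genes. Summed fibroblast markers (10 genes) were at 9951 to 10210 CPM at 0 h, 9247 to 9495 at 6 h and 9472 to 9796 at 24 h. On average over the libraries Vim was at 4402 and Col1a1 at 3011 CPM, but Dcn at 1.45, Fap at 0.075 and Lum at 0.0143 CPM. The 10 leukocyte markers summed to 5.61 to 8.03 CPM over all libraries, with Adgre1, Lyz2, Cd3e and Itgax among those at 0 in every library. Cd14 and Cd68 were the highest of them, at 3.48 and 2.26 CPM on average. The 5 keratinocyte markers summed to 6.70 to 7.09 CPM at 0 h and 7.54 to 9.06 at 6 h. Krt5 and Krt1 were at 0, but Krt10 averaged 5.79 and Epcam 1.94 CPM. The 5 endothelial markers summed to 0.865 to 1.74 CPM, with Emcn at 0 and Kdr at 0.990 on average. The part of these levels in the results below was not tested. Fewer cells of a type and less RNA per cell cannot be told apart in bulk libraries.

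At 6 h, 3 of the 8 members with enough counts for a test had fallen and none had risen. They were Gbp2b, to about 0.394 of its 0 h level, Ifit2, to 0.853, and Stat2, to 0.849. That is 37.5% of the tested members, against 39.0% of all 13785 genes called at this time (20.8% called higher and 18.2% lower), so the members' share was near that of all genes. The median log2 change of the 8 members was -0.15, and that of all genes tested was 0.0067. By 24 h no member differed from 0 h by the same test, against 7.04% of all genes, and 3 members differed between 24 h and 6 h (36.1% of all genes): Ifit2 and Gbp2b were higher at 24 h (17.4% of all genes were) and Ifit1 was lower (18.8%). The labels call the libraries biological triplicates without naming separate cultures, so the p-values measure the spread between these libraries.

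**Figure D1:**
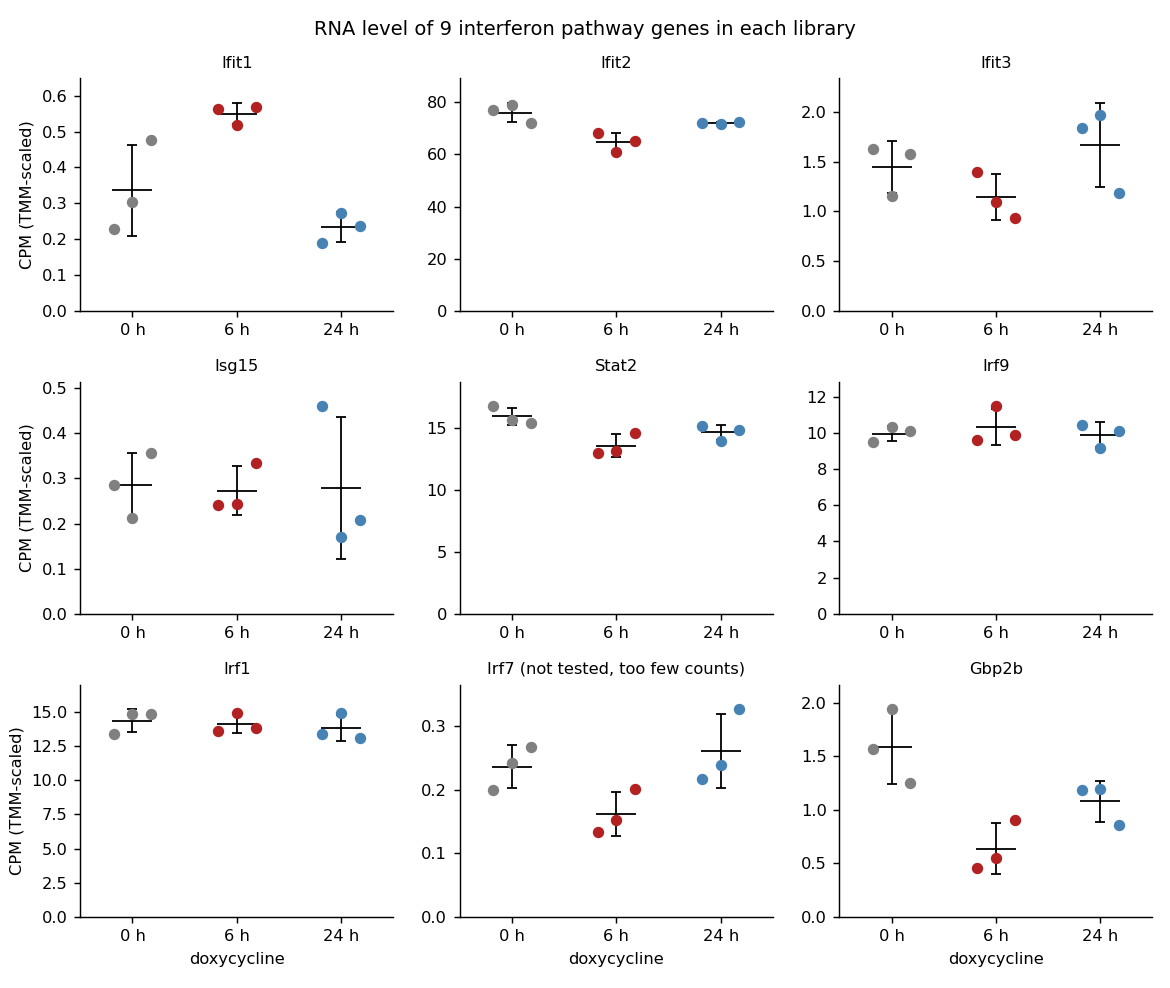
RNA level of the 9 genes, 1 point per library, in TMM-scaled CPM (vertical axis, starting at 0) at 0 h, 6 h and 24 h of doxycycline (horizontal axis); black lines are the mean and SD of 3 libraries. Gbp2b, Ifit2 and Stat2 sit lower in all 3 libraries at 6 h than in any at 0 h. Ifit1 sits higher at 6 h but was not called against 0 h, and Irf9 and Irf1 overlap at all times.

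Ifit1 encodes an RNA-binding antiviral protein that is among the first induced by interferon. It was close to the limit of detection, with 7 to 21 reads per library. Its level was 0.228, 0.303 and 0.476 CPM at 0 h, 0.564, 0.517 and 0.569 CPM at 6 h, and 0.189, 0.272 and 0.237 CPM at 24 h. All 6 h libraries lay above all others, and the 24 h libraries overlapped those of 0 h. The difference between 6 h and 0 h was 0.71 on the log2 scale (SE 0.33, edgeR adjusted p = 0.0947) and did not pass. Leaving out the highest 0 h library, replicate 3, gave 1.05 (edgeR adjusted p = 0.0386; range over all alternatives 0.0386 to 0.333). Between 6 h and 24 h the log2 change was -1.24 (SE 0.36, edgeR adjusted p = 0.00802), a call that held under all 15 alternatives (adjusted p from 0.00685 to 0.0458). Ifit1 lies inside the span of Ifit1bl1, a close relative, so reads that fit both genes could have been lost or split; Ifit1bl1 had 21, 24 and 21 counts summed over the 3 libraries at 0 h, 6 h and 24 h.

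Ifit2, which encodes another IFIT protein, had 1947 to 2698 reads per library and so the most precise values of the set. Its level was 76.9, 79.1 and 72.0 CPM at 0 h, 68.2, 61.1 and 65.2 CPM at 6 h, and 72.2, 71.9 and 72.4 CPM at 24 h. The 6 h libraries were below every 0 h and every 24 h library, and the 24 h values lay within the 0 h range except for 1 library just under it. The log2 change of Ifit2 was -0.23 at 6 h against 0 h (SE 0.038, edgeR adjusted p = 1.84e-05). Between 6 h and 24 h it was 0.15 (SE 0.038, edgeR adjusted p = 0.00217). Both calls held under all 15 alternatives. The change at 24 h against 0 h was -0.07 (SE 0.038, edgeR adjusted p = 0.275).

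Ifit3 encodes a further member of the IFIT family. It had 28 to 68 reads per library, or 1.63, 1.15 and 1.58 CPM at 0 h, 1.40, 1.09 and 0.938 CPM at 6 h, and 1.84, 1.97 and 1.19 CPM at 24 h. The 3 times overlapped: the lowest 0 h library and the lowest 24 h library were within the 6 h range. The difference was -0.33 at 6 h (SE 0.23, edgeR adjusted p = 0.271) and 0.52 between 24 h and 6 h (SE 0.22, edgeR adjusted p = 0.0679). The latter passed without 24 h replicate 3 (0.72, adjusted p = 0.0137), without 6 h replicate 1 (0.70, adjusted p = 0.0423) and with no filter on low counts (0.53, adjusted p = 0.0465), within a range of 0.0137 to 0.238 over the alternatives. Its near copy Ifit3b had 5, 1 and 9 counts summed over the 3 libraries of each time, and reads shared by the pair could be missing from either.

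Isg15 had only 5 to 17 reads per library. Its level was 0.285, 0.212 and 0.357 CPM at 0 h, 0.242, 0.243 and 0.335 CPM at 6 h, and 0.460, 0.170 and 0.208 CPM at 24 h. The times overlapped throughout, with the highest and the lowest library both at 24 h. A difference from 0 h was not detectable at this depth at 6 h (log2 -0.08, SE 0.43) or at 24 h (log2 0.02, SE 0.42), and those standard errors leave room for changes as large as the one called for Ifit2. The direction of both differences turned under some alternatives.

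Stat2, the transducer that belongs to the ISGF3 complex, had 410 to 588 reads per library. Its level was 16.8, 15.7 and 15.5 CPM at 0 h, 13.0, 13.2 and 14.6 CPM at 6 h, and 15.2, 14.0 and 14.8 CPM at 24 h. All 6 h and all 24 h libraries were below all 0 h libraries, and the 24 h libraries overlapped those of 6 h. At 6 h Stat2 was lower, with a log2 change of -0.24 (SE 0.065, edgeR adjusted p = 0.0046), a call that held under all 15 alternatives with adjusted p from 0.00181 to 0.0359. The changes at 24 h against 0 h (-0.12, SE 0.064, edgeR adjusted p = 0.307) and at 24 h against 6 h (0.12, SE 0.066, edgeR adjusted p = 0.184) did not pass.

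Irf9, the DNA-binding subunit of ISGF3, had 269 to 386 reads per library. Its level was 9.47, 10.3 and 10.1 CPM at 0 h, 9.61, 11.5 and 9.88 CPM at 6 h, and 10.4, 9.16 and 10.1 CPM at 24 h. The 3 times overlapped, with the highest library at 6 h and the lowest at 24 h. The log2 difference was 0.05 at 6 h (SE 0.080, edgeR adjusted p = 0.667) and -0.0022 at 24 h (SE 0.081, edgeR adjusted p = 0.994).

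Irf1, a transcription factor induced chiefly by interferon gamma, had 414 to 508 reads per library. Its level was 13.4, 14.8 and 14.8 CPM at 0 h, 13.6, 15.0 and 13.9 CPM at 6 h, and 13.4, 14.9 and 13.1 CPM at 24 h. Here too the times overlapped. The log2 difference was -0.02 at 6 h (SE 0.068, edgeR adjusted p = 0.859) and -0.06 at 24 h (SE 0.068, edgeR adjusted p = 0.723). For Irf9 and Irf1 the small differences from 0 h changed sign under some alternatives, at 24 h for Irf9 and at 6 h for both.

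Irf7, the factor that amplifies type I interferon production, had 7, 8 and 9 reads at 0 h, 5, 5 and 6 at 6 h, and 8, 7 and 11 at 24 h, and did not pass the filter on low counts. The 6 h libraries had the fewest reads, and in CPM they overlapped the 0 h libraries but not those of 24 h. Without the filter, its log2 difference at 6 h was -0.55 (SE 0.54, edgeR adjusted p = 0.611). Over the 9 libraries the gene collected 66 reads on its own strand, 368 on the other and 93 in the unstranded count, which depends on how reads over 2 genes are treated.

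Gbp2b encodes a guanylate-binding GTPase and had 17 to 64 reads per library. Its level was 1.57, 1.94 and 1.25 CPM at 0 h, 0.456, 0.547 and 0.904 CPM at 6 h, and 1.19, 1.19 and 0.861 CPM at 24 h. All 6 h and all 24 h libraries lay below all 0 h libraries, and the 24 h libraries overlapped those of 6 h through 1 library of each. The log2 change at 6 h was -1.34 (SE 0.26, edgeR adjusted p = 0.000112), the largest fall among the 8 tested members, and the call held under all 15 alternatives with adjusted p from 1.64e-07 to 0.00275. At 24 h it was at -0.55 against 0 h (SE 0.23, edgeR adjusted p = 0.164).

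Between 6 h and 24 h the log2 change of Gbp2b was 0.79 (SE 0.28, edgeR adjusted p = 0.0254). That call was lost without 6 h replicate 1 (0.58, adjusted p = 0.153), 6 h replicate 2 (0.71, adjusted p = 0.0876), 24 h replicate 1 (0.71, adjusted p = 0.0902) or 24 h replicate 2 (0.73, adjusted p = 0.0775), within a range of 0.00635 to 0.153 over all alternatives. At 24 h against 0 h edgeR called 0 members, and DESeq2 also called 0. Of the 8 tested members, Gbp2b alone had an unadjusted edgeR p under 0.05 (0.0235). The comparisons of 6 h with 0 h and of 24 h with 6 h share the 6 h libraries, so a fall followed by a rise is not 2 independent observations.

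**Figure D2:**
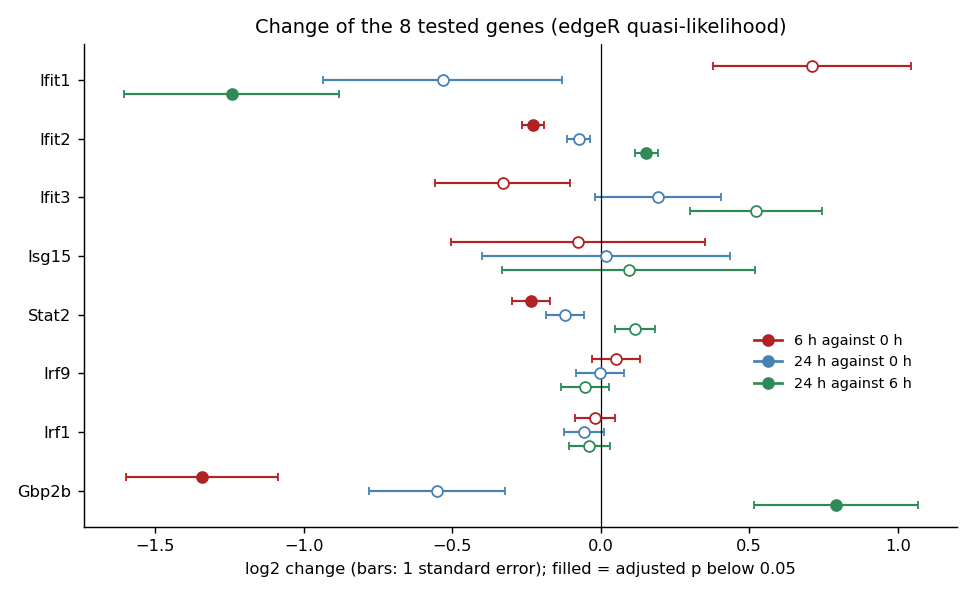
Log2 change (horizontal axis) of the 8 tested genes in the 3 comparisons between times, with bars of 1 standard error; filled points passed an edgeR adjusted p of 0.05. Gbp2b at -1.34, Stat2 at -0.24 and Ifit2 at -0.23 passed at 6 h, none passed at 24 h against 0 h, and Isg15 has the widest bars.

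The members were set beside a list of 133 interferon pathway genes ordered by role, 78 of which had enough counts for a test. At 6 h, 7 of the 78 rose and 18 fell (32.1%, against 39.0% of all genes), with a median log2 change of -0.04. Without the members, 7 of 70 rose and 15 fell. At 24 h against 0 h only Bst2, which encodes the virion tether tetherin, was called, at 0.29 (SE 0.079, edgeR adjusted p = 0.0210). That is 1.28% of the list against 7.04% of all genes, and between 0 and 2 genes were called when single libraries were left out. Between 6 h and 24 h 15 genes rose and 8 fell (29.5%, against 36.1%), with a median of 0.08.

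None of the 10 interferon ligand genes had enough counts for a test, and Ifnb1, Ifna1, Ifna2, Ifna4 and Ifna5 had 0 counts in all 9 libraries. Of all genes tested, 20.8% were called higher and 18.2% lower at 6 h, and the counts by role stand beside these shares. Among 5 receptors tested, Ifngr2, a chain of the interferon gamma receptor, rose by 0.11 at 6 h (edgeR adjusted p = 0.00661). Of the 6 kinases and STATs, the kinase gene Jak1 fell by 0.12 (edgeR adjusted p = 0.000159) beside Stat2, and the other 4 were not called.

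Of 12 nucleic acid sensors and adaptors, 2 rose and 4 fell at 6 h (20.8% and 18.2% of all genes did). Cgas, the DNA sensor, rose by 0.26, while Ddx58, which encodes the RNA sensor RIG-I, fell by 0.40, and the adaptor Ticam1 and the nucleotide hydrolase Samhd1 fell by 0.26 and 0.25. Among 5 regulatory factors tested, Irf5 rose by 0.44 (edgeR adjusted p = 0.0119) and Irf1 was not called. Of 25 induced effectors tested, the chemokine gene Cxcl10 rose by 0.84 and 4 fell, among them Ifit2, Uba7 by 1.00 and Isg20 by 0.70. Uba7 is the activating enzyme for ISG15, and Isg20 is an exonuclease; the other 20, with Ifit1, Ifit3 and Isg15, were not called.

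The 8 tested GTPase genes gave 3 falls and no rise at 6 h, when 39.0% of all genes were called (18.2% lower and 20.8% higher). No role was tested as a set. Gbp2, the neighbour of Gbp2b, fell by 0.92 (SE 0.27, edgeR adjusted p = 0.00771) and Irgm1 by 0.34 (SE 0.049, edgeR adjusted p = 2.58e-06). All 3 rose again from 6 h to 24 h (17.4% of all genes rose), Gbp2 by 0.85 and Irgm1 by 0.40, with Gbp2b as above. Gbp2 and Gbp2b are close relatives, so reads they share could be missing from both. In antigen presentation 4 of 11 fell and 1 rose (18.2% and 20.8% of all genes did). The peptide-loading genes Tapbp and Tap2 fell by 0.54 and 0.69, and the class I heavy chains H2-K1 and H2-D1 by 0.28 and 0.14. Of 6 negative regulators, Ptpn2, a phosphatase of JAK and STAT proteins, rose by 0.27 and Pias1, an inhibitor of STAT signalling, fell by 0.20.

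**Figure D3:**
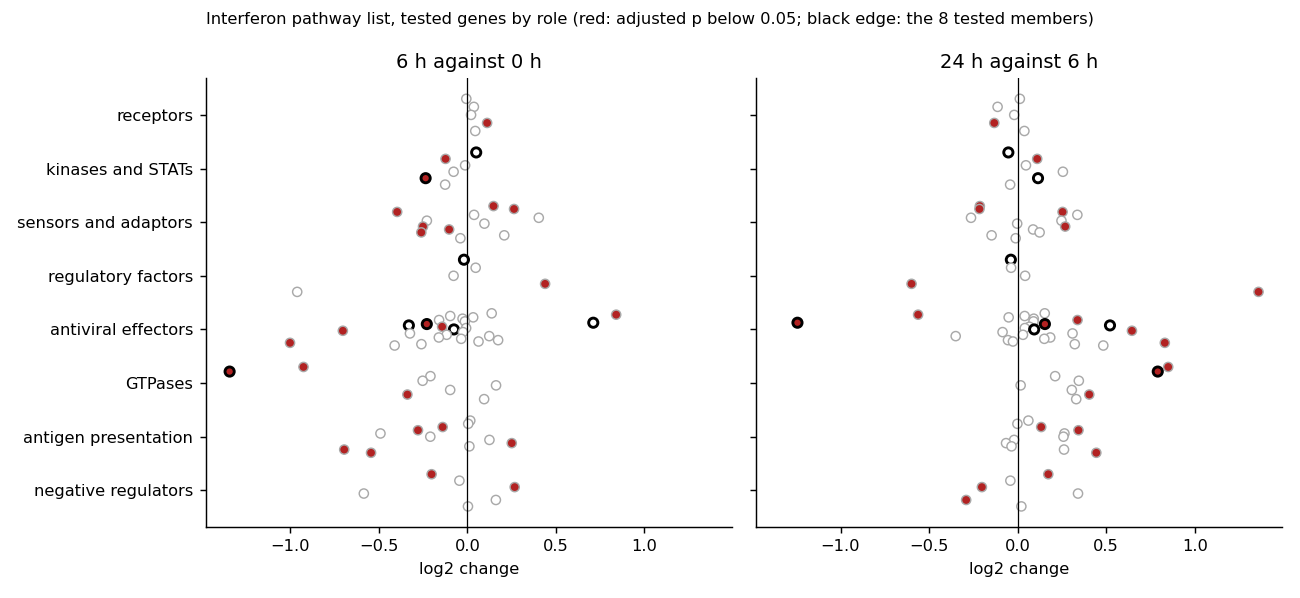
Log2 change (horizontal axis) of the 78 tested pathway genes by role, at 6 h against 0 h (left) and at 24 h against 6 h (right); red points passed an edgeR adjusted p of 0.05 and black edges mark the 8 tested members. Gbp2b is the leftmost point at 6 h (-1.34). The 3 red GTPase genes lie left of 0 at 6 h, where 18.2% of all genes were called lower. They lie right of 0 at 24 h against 6 h, where 17.4% were called higher, and the comparisons share the 6 h libraries.

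The genes whose log2 level followed a member most closely over the 9 libraries, out of 10686 candidates, were Osgin2 (Pearson r = 0.983) and Kctd5 (0.964) for Ifit1, Pld3 (0.975) for Ifit2, and Fos (0.970) and Sipa1 (0.950) for Stat2. For Gbp2b they were C1qtnf1 (0.969) and Pcdh18 (0.969), and for Ifit3 Foxred2 (0.931) and Prkdc (0.930). The closest genes were less alike for Isg15 (Zbtb44 0.889, Sox5 0.861), Irf1 (Pik3c3 0.882, Map3k5 0.868) and Irf9 (Slc35d2 0.870, Plce1 0.867). Members were left out of the candidates before the search, so likeness between members was not examined. Each r is the highest of many over libraries that share the same 3 times, so it is a description only.

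In the ChIP libraries, macroH2A2 regions covered bases of 3 of the 9 gene bodies at 0 h (Ifit3, Isg15, Gbp2b; 16.9% of all 21631 protein-coding genes) and of 5 at 6 h (Ifit2, Ifit3, Stat2, Irf1, Gbp2b; 46.1% of all genes). They covered 3 again at 24 h (27.5%) and at 5 days (23.4%), the same genes as at 0 h. With flavopiridol 5 were covered (37.0%), with GSK126 4 at 6 h (50.9%) and 2 at 24 h (24.8%), and for H2A.Z 8 (67.6%). Each condition had 1 library, so no difference between them could be tested. At least 50% of the gene body was covered for 2 members at 0 h (Ifit3 and Isg15, 3.37% of all genes), 1 at 6 h (Ifit3, 11.3%), 2 at 24 h (Ifit3 and Isg15, 8.78%) and 2 at 5 days (Ifit3 and Gbp2b, 6.66%). The count was 3 with flavopiridol (11.9%), 2 at 6 h and 1 at 24 h after GSK126 (12.4% and 5.97%), and 1 for H2A.Z (4.75%). The listed regions covered 201 Mb at 0 h and 338 to 392 Mb in the other macroH2A2 libraries. At 0 h the cells were uninduced double knockouts. Whether the 0 h regions hold transgene product or ChIP background was not tested. The 9 members fell into 3 classes. Ifit3, Isg15 and Gbp2b had covered bases at 0 h, 24 h and 5 days, but Isg15 had 0% at 6 h and only 1.29% at 5 days. Ifit2, Stat2 and Irf1 were covered at 6 h and not at 0 h, 24 h or 5 days (3 of 9 against 21.5% of all genes). Ifit1, Irf9 and Irf7 had no base covered in any of the 7 macroH2A2 libraries (3 of 9 against 40.0%). These classes were formed after the values were seen.

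The lists number their regions and skip some numbers. Such a gap adjoined a member in 9 of 81 pairs of locus and list, 7 of them at Gbp2b, so coverage there may be too low: the values of Gbp2b in all lists but the 2 made at 5 days, that of Ifit1 at 6 h and that of Ifit3 for H2A.Z are lower limits. Positions are those of GRCm38, with gene bodies as RefSeq gives them.

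**Figure D4:**
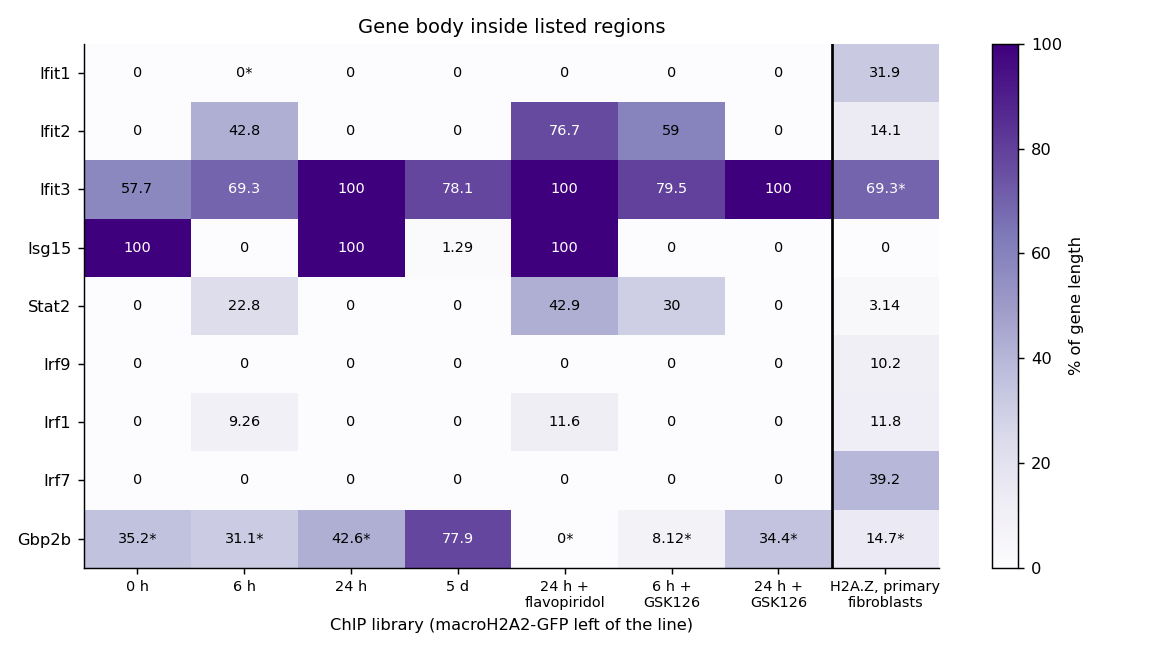
Percent of each gene body (rows) inside listed regions in each ChIP library (columns), 7 for macroH2A2-GFP left of the line and 1 for H2A.Z right of it; an asterisk marks a lower limit, where the list skips a region number beside the gene. Ifit3 is covered in every library, Ifit2 and Stat2 only at 6 h, with flavopiridol and at 6 h after GSK126 among the macroH2A2 libraries, and Irf9 and Irf7 only for H2A.Z.

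The 3 Ifit genes sit in 1 cluster on chromosome 19 and differed from each other. Ifit3 (34583119 to 34588982, plus strand) was covered over 57.7% of its length at 0 h, 69.3% at 6 h, 100% at 24 h and 78.1% at 5 days. Its macroH2A2 regions all had a score of 1, below the list median of 2 except in the 0 h and 5-day lists. At 24 h a single region of 29.0 kb held all of Ifit3 and ran past its 3′ side into Ifit3b, which was itself covered in every library. Ifit2 (34550550 to 34576534, plus strand) had no covered base at 0 h, 24 h or 5 days, but at 6 h 4 regions held 42.8% of it. In those other 3 libraries regions ended 0.550 to 1.95 kb short of the gene. Ifit1 (34640889 to 34650009, plus strand) was not covered, with the nearest listed region 14.4 kb away at 0 h, 14.6 kb at 6 h, 0.889 kb at 24 h and 2.69 kb at 5 days. The 6 h list skips a region number beside it, so a nearer region may be missing there.

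**Figure D5:**
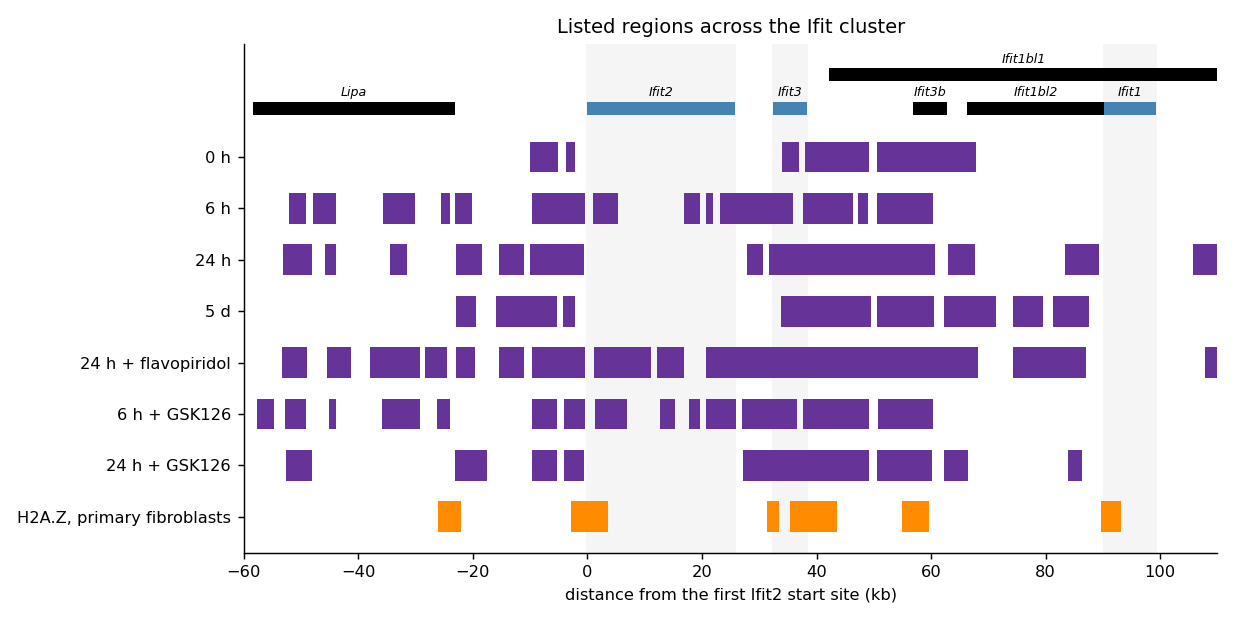
Listed regions (bars) in 8 ChIP libraries across the Ifit cluster, as distance in kb from the first start site of Ifit2 (horizontal axis), with gene bodies on top and the 3 members shaded. Regions lie within the Ifit2 body at 6 h, with flavopiridol and at 6 h after GSK126, Ifit3 lies in regions in all libraries, and Ifit1 is met by the H2A.Z region alone.

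Isg15 (chromosome 4, 156199424 to 156200818, minus strand) is short, and the edge of a region next to it decided its coverage. In all 7 macroH2A2 libraries a region began 1.78 or 1.98 kb upstream of its start site. At 0 h that region ran 1.62 kb past the start site and at 24 h 2.02 kb past it, over the whole gene, while at 6 h it ended 0.183 kb before the start site and at 5 days 0.017 kb after it. Coverage was therefore 100%, 0%, 100% and 1.29% at 0 h, 6 h, 24 h and 5 days. The 5-day library called with the wider window of 1000 and gap of 4000 gave 100% for Isg15, from 1 region of 18.0 kb, so its low value at 5 days depends on the calling window. The 3 ISRE-core matches printed above lay inside the region in 4 of the 7 libraries, with the narrower window.

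Stat2 (chromosome 10, 128270498 to 128292853, plus strand) had a region upstream in every macroH2A2 library. It stopped 2.90 kb before the start site at 0 h, 2.70 kb before it at 24 h and 1.70 kb before it at 5 days, but at 6 h it ran 1.50 kb into the gene. With a second region, from 2.50 to 6.10 kb, it covered 22.8% of Stat2. That start site lies inside the body of Apof, which was covered over 100% of its length at 6 h and 0% at 0 h and 24 h. The ISRE-core match of Stat2 was inside a region at 6 h and at 6 h after GSK126, 2 of the 7 libraries. Those of Ifit3 were inside listed regions in 5 of the 7, and those of Ifit1 and Gbp2b in 0. The share over all genes is not given here.

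Irf1 (chromosome 11, 53770014 to 53778374, plus strand) was touched at its 3′ end at 6 h, over 9.26% of its length. An upstream region was present in all 7 libraries and ended 0.414 to 1.21 kb before its start site. Irf9 (chromosome 14, 55603985 to 55610030, plus strand) was far from any region, with the nearest 37.8 to 179 kb away. Irf7 (chromosome 7, 141263183 to 141266499, minus strand) had its nearest region 13.1 to 17.9 kb away. Gbp2b (chromosome 3, 142594816 to 142619179, plus strand) was covered over its 3′ part, which a region of 13.8 to 17.2 kb joined to the neighbouring Gbp2 from 0 h to 5 days. Its coverage was 77.9% at 5 days (95.1% with the wider window), and at least 35.2% at 0 h, 31.1% at 6 h and 42.6% at 24 h.

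With flavopiridol at 24 h, Ifit2 was covered over 76.7% of its length against 0% without it, and Stat2 over 42.9% against 0%. A difference of 20 points or more in this direction was found in 2 of the 9 members and in 10.5% of all genes. Irf1 was covered over 11.6% against 0%, and Ifit3 and Isg15 over 100% in both libraries. With flavopiridol the regions over Ifit2 and Ifit3 had a score of 1 at most, below the median of 2 in that list. Those over Stat2, Irf1 and Isg15 scored up to 2, 2 and 3. Gbp2b was listed at 0% with flavopiridol, with the nearest region 21.6 kb away, against 42.6% without it, which made 1 of 9 members lower by 20 points or more (3.37% of all genes). Both lists skip region numbers beside Gbp2b, 2 with flavopiridol and 1 without, so both values are lower limits and the size of that difference is not known. In the library with flavopiridol 1 region of 47.4 kb ran from the 3′ end of Ifit2 through Ifit3 and Ifit3b. The lists cover 385 Mb with flavopiridol and 363 Mb without.

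After GSK126, coverage at 6 h was 59.0% for Ifit2 (42.8% without), 79.5% for Ifit3 (69.3% without) and 30.0% for Stat2 (22.8% without), no member gained 20 points or more (7.50% of all genes did), and Irf1 had no covered base (9.26% without). Gbp2b was the 1 member of 9 listed lower by 20 points or more at 6 h (4.78% of all genes), at 8.12% after GSK126 and 31.1% without, and at 24 h it was at 34.4% and 42.6%. These are again lower limits, since all 4 lists skip region numbers beside the gene. At 24 h Isg15 went from 100% without GSK126 to 0% after it, with its region ending 0.383 kb before the start site. That was 1 of 9 members lower by 20 points or more, against 6.15% of all genes. Ifit3 stayed at 100%, and Ifit1, Ifit2, Stat2, Irf9, Irf1 and Irf7 at 0%. RNA was not measured after either inhibitor in the libraries used here.

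H2A.Z, a histone variant known to mark promoters, was found at the start site of 7 of the 9 genes in the primary fibroblasts, against 57.1% of all 17274 genes with a listed start site and 75.0% of 104 pathway genes. The exceptions were Isg15 and Gbp2b, the latter with a skipped region number beside it. The regions at the start sites were short, from 1.40 kb at Irf9 to 6.40 kb at Ifit2, and covered from 3.14% of Stat2 to 39.2% of Irf7, with 69.3% of Ifit3 through 2 regions. Isg15 was missed by 0.024 kb, by a region on its 3′ side. The 3 genes without listed macroH2A2 coverage, Ifit1, Irf9 and Irf7, all had H2A.Z at the start site. So did Ifit2, Ifit3, Stat2 and Irf1, which had macroH2A2 coverage.

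Set side by side, the 3 genes that fell in RNA at 6 h had different coverage. Ifit2 and Stat2 were in the class covered at 6 h and not at 0 h, 24 h or 5 days, and Gbp2b was covered at all 4 times. Irf1 shared the coverage class of Ifit2 and Stat2 and was not called in RNA, with covered bases only at its 3′ end. Ifit1 had no covered base listed, a lower limit at 6 h. Its 6 h libraries were all higher, but at 7 to 21 reads per library the difference from 0 h was not called (edgeR adjusted p = 0.0947). With 9 genes and 1 ChIP library per time, no relation between coverage and RNA change was tested.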

How the data were processed

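RNA libraries (directional, poly(A), 80-base single-end reads) were aligned by the authors with STAR 2.5.2b, per the submitters' processing notes. The deposited values are raw counts per gene, of which the column for the strand holding most reads was used; lines naming no gene (21.2 to 23.1% of reads) were left out. ChIP regions were called by the authors with SICER 1.1, per the submitters' processing notes (genome mm10), with a window of 200, a gap of 800 and a threshold of 0.01, as the deposited lists are named; Bowtie 1.1.2 is also named there. The deposited score per region is a whole number whose reference is not given in the sources used here, and a further deposited column (unit: other) is a running number. The input library was not analysed here, and regions with skipped numbers were not used here.

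The members and all lists were chosen with earlier results of these data known. Counts of 9 libraries were fitted together in edgeR 4.0.16 (R 4.3.3; filterByExpr, TMM, quasi-likelihood, Benjamini-Hochberg over the 13785 genes kept, called at an adjusted p of 0.05), after tests on simulated data. Coverage is the percent of bases from gene start to gene end (RefSeq GRCm38.p6) inside merged regions; genes on chromosomes 1 to 19 and X were used. The genes named are all members, up to 4 called genes per role and comparison with the smallest p, the 2 genes most like each member with a mean of 1 CPM or more, the induced gene, and neighbours needed to describe a region; the ligands and the relatives Ifit1bl1 and Ifit3b were named in addition, for context, and a few genes that these rules pick are not reported here. Cgas was matched through a RefSeq synonym. The rules of 20 points, the coverage classes and the motifs were set after values were seen. Counting error is the only error that depth accounts for. Alternatives were RLE size factors, DESeq2 1.42.0, no filter, unstranded counts, 6 libraries only, the replicate number as a block, each library left out, and for coverage a wider or narrower locus, a minimum score and a wider calling window. Alignment to unique positions can remove reads shared by related genes.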

Additional observations from a re-analysis of the deposited data

Results flagged for a closer look

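For 3 members the change by 24 h differed from the change by 6 h, which is the 24 h against 6 h comparison of the same edgeR fit. That is 37.5% of the 8 tested members, near the 36.1% of all genes called in this comparison. For Ifit1 the log2 change at 24 h minus that at 6 h was -1.24 (edgeR adjusted p = 0.00802), with all 3 libraries at 24 h below all 3 at 6 h. For Ifit2 it was 0.15 (edgeR adjusted p = 0.00217), with all 3 libraries at 24 h above all 3 at 6 h. For Gbp2b it was 0.79 (edgeR adjusted p = 0.0254), with overlapping libraries and a call that was lost when any of 4 single libraries was left out.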

How the results depend on the processing

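The 3 calls at 6 h and those of Ifit1 and Ifit2 between 24 h and 6 h held under all 15 alternatives, and 328 of 356 recomputed results kept direction and side of the threshold. Reversals concerned uncalled differences of Isg15, Irf9 and Irf1, and their cause was not tested. With single libraries left out, the log2 change at 6 h ranged from -0.24 to 0.11 for Isg15 (above 0 without 0 h replicate 3 or 6 h replicate 1), from -0.032 to 0.10 for Irf9 (below 0 without 6 h replicate 2) and from -0.068 to 0.010 for Irf1. At 24 h against 0 h it ranged from -0.57 to 0.25 for Isg15 (below 0 without 0 h replicate 2 or 24 h replicate 1) and from -0.043 to 0.049 for Irf9, and between 24 h and 6 h from -0.50 to 0.33 for Isg15, from -0.11 to 0.030 for Irf9 and from -0.084 to 0.0031 for Irf1. At 24 h against 0 h Isg15 was also at -0.0061 by DESeq2, and Irf9 at 0.0011 with no filter and 0.0017 with 6 libraries only. The pathway count at 24 h ranged from 0 to 2 with single libraries left out (1 with all of them; 0 when replicate 1 or 2 of 0 h or replicate 3 of 24 h was left out, and 2 when replicate 3 of 0 h or replicate 1 of 24 h was). The count of all genes called at 24 h, 971, became 647 and 553 without 0 h replicates 1 and 2, and 631 and 629 without 24 h replicates 2 and 3. Same-numbered libraries did not deviate together (r from -0.0183 to 0.039 over 9 pairs), while 5 of 9 libraries correlated best with their own number. No pairing by number was found, but deviations centred within groups of 3 libraries cannot exclude one. The fit with the replicate number as a block called the same number of members (3, 0 and 3). It called 25, 1 and 24 pathway genes and 5435, 1027 and 5036 of all genes in the 3 comparisons. That fit put Isg15 at -0.0044 and Irf9 at 0.0001008 at 24 h. Mean coverage over the 9 members changed with the locus and with the score: with 1 kb around the start site it went from 21.4 to 11.1% at 0 h, 19.5 to 33.4% at 6 h, 17.5 to 6.37% at 5 days, 19.6 to 32.8% at 6 h after GSK126 and 21.6 to 65.7% for H2A.Z. With 5 kb added it became 31.1% at 6 h, 29.5% at 6 h after GSK126 and 24.1% (from 14.9%) at 24 h after GSK126. Regions at or above the median score gave 4.25% at 6 h, 11.1% (from 27.0%) at 24 h, 14.8% (from 36.8%) with flavopiridol, 4.19% and 0.0% at 6 h and 24 h after GSK126, and 14.3% for H2A.Z. The wider window and gap gave 32.8% at 5 days. Depth limits Ifit1, Isg15 and Irf7, with at most 21, 17 and 11 reads per library.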

Other observations

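At 0 h, before doxycycline, regions listed for macroH2A2 covered at least 80% of the body of 12 of 129 pathway genes (9.30%, against 1.41% of all protein-coding genes). They were the member Isg15 and, outside the members, Cxcl10, Cxcl9, Ifi44l, Ifit3b, Ifna1, Ifna5, Ifnb1, Ifne, Ifnk, Tap1 and Tgtp2. Of these, 5 are interferon ligand genes, none of which had enough counts for a test of RNA. The shares do not account for gene length or for neighbouring genes that lie in the same region. The chemokine gene Cxcl10 rose by 0.84 at 6 h (edgeR adjusted p = 0.000887) and fell by 0.56 from 6 h to 24 h (edgeR adjusted p = 0.0192), and these comparisons share the 6 h libraries. Tap1 (0.012, edgeR adjusted p = 0.961) and Isg15 (-0.08, edgeR adjusted p = 0.913) were tested too and not called at 6 h. The coverage values come from 1 ChIP library of uninduced double knockout cells and were chosen after they were seen.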
